A study of Mus musculus with 3 samples.

Results

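The calmodulin, calmodulin-binding and CaMK genes described here are 9 of the 28001 features of the count matrix, chosen by their symbols: Calm2, Calm3, Nrgn, Pcp4, Gap43, Camk2a, Camk2b, Camk4 and Ppp1r1b. All 9 were found, with 4173 (Camk2a) to 132727 (Calm2) UMIs, the molecular tags that count RNA molecules, before doublets were removed. They were measured in single cells of the mouse nucleus accumbens, in 3 samples of 1 group of Thy1::ChR2 mice, which carry the light-gated channel channelrhodopsin (ChR2) under the Thy1 promoter, active in many projection neurons. FLiCRE labelling was carried out in every sample during optogenetic stimulation of the nucleus accumbens, and tissue came from a coronal dissection of 400 um. The labels give no age and do not say whether animals were pooled. Without an unstimulated or unlabelled group, all comparisons were made between classes of cells inside the same libraries.

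Calmodulin is a small protein that changes shape when it binds calcium and then docks on other proteins. Mammals encode the same calmodulin protein in several genes, among them Calm2 and Calm3. Neurogranin (Nrgn), neuromodulin (Gap43) and PEP-19 (Pcp4) hold calmodulin through an IQ motif, and calcium-bound calmodulin switches on the kinases CaMKII (Camk2a, Camk2b) and CaMKIV (Camk4) and the phosphatase calcineurin. DARPP-32 (Ppp1r1b) is a target of calcineurin and, when phosphorylated by protein kinase A, inhibits protein phosphatase 1 in striatal spiny neurons. FLiCRE itself depends on calmodulin binding: a rise of calcium together with light frees a transcription factor, which drives transcription of a reporter. The mCherry feature of the matrix was read as that reporter.

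The codons of the IQ motif are shown for Nrgn and Pcp4 because both proteins hold calmodulin through this motif, while their fold changes between Drd1-type and Adora2a-type neurons had opposite signs, that of Pcp4 without passing the test. Each stretch of 33 bases runs 5′ to 3′ on the coding strand, read from GENCODE M21 transcripts, and the capitals mark the codons of the isoleucine-glutamine pair and of the arginine that follows after 3 residues. The Nrgn stretch lies at chr9:37546061-37546093 (GRCm38, minus strand) in coding exon 2, and the Pcp4 stretch at chr16:96525464-96525496 (plus strand) in exon 3.
Nrgn: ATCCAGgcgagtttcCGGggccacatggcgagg
Pcp4: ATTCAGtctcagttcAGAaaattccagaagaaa
The stretches matched at 14 of 33 bases and encode the same residue at 4 of 11 positions.

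Libraries are numbered by the suffix of the cell barcodes, which could not be matched to the replicate numbers in the sample titles. Libraries 1, 2 and 3 kept 2306, 5783 and 1834 cells, and the pairs of libraries shared 13 (1 with 2), 7 (1 with 3) and 22 (2 with 3) barcode sequences. Cells were placed in a class by the number of its marker genes with a UMI, and 75.5%, 56.7% and 71.6% of cells passed 1 gate. Another 7.33%, 36.2% and 22.2% passed several gates and were left out. Drd1-type neurons, the spiny neurons of the direct pathway, numbered 154, 593 and 204, and Adora2a-type neurons, those of the indirect pathway, 155, 287 and 160. Adora2a-type neurons held Adora2a and Penk, while Drd2 reached only 2.68 CPM. The check markers not used in the gates fell on the labelled side for Slc35d3 (121 CPM in Drd1-type, 6.04 in Adora2a-type), Ebf1 (80.4 and 2.01) and Grik3 (3.73 and 79.2), whereas Eya1 and Ttc12 stayed below 3 CPM in both. The level of a gene (CPM) is its UMIs in the cells of a class, scaled to a total of 1000000 UMIs. A 3′ assay does not allow levels of different genes to be ranked by length, so levels were compared within a gene. Library 2 stood apart: 7 neuron markers that were not used in the gates reached a median of 12.9% of their neuronal level in its non-neuronal cells, against 2.12% in library 1 and 3.45% in library 3.

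Drd1-type and Adora2a-type neurons differed in 3 of the 9 genes. Nrgn and Camk4 were lower in Drd1-type neurons and Camk2a was higher, while Calm2, Calm3, Gap43, Camk2b and Ppp1r1b did not pass the test and Pcp4 lay close to its threshold. The test was edgeR's quasi-likelihood test on sums per library with the library as block, and an adjusted p under 0.05 counted as passing. Over all genes, 164 of 7944 (2.06%) passed. The median log2 fold change of the 9 genes was 0.07, beside 0.00399 for all genes tested. The labels do not say whether the 3 samples came from separate animals, so the p-values measure only the spread between these libraries.

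Nrgn, a postsynaptic protein that holds calmodulin when calcium is low, had 1984, 595 and 1291 CPM in Drd1-type neurons of libraries 1, 2 and 3. Its level in Adora2a-type neurons was 3278, 1178 and 2288 CPM. Adora2a-type neurons were higher in each library, although the libraries themselves spread so widely that the 2 sets of values overlapped. The ratio of Drd1-type to Adora2a-type was 0.605, 0.505 and 0.564, a mean of 0.558 ± 0.0504 (SD, n = 3 libraries). The fitted log2 fold change was -0.87 (SE 0.0722) with an adjusted p of 9.08e-18 (edgeR), a value that rests on a spread shared across genes. Without the library as block Nrgn did not pass (log2 fold change -0.83, adjusted p 0.9998), and it passed under each of the other 12 alternatives, from -0.72 to -1.08. The share of cells with a Nrgn UMI pointed the same way: with each cell thinned to 1000 UMIs it was 64.2%, 33.5% and 59.7% of Drd1-type and 89.1%, 56.0% and 77.9% of Adora2a-type neurons. Oligodendrocytes, which should lack Nrgn, gave 2.77%, 7.14% and 4.14% at the same depth, and thinning left out 239, 52 and 12 of them. Unthinned, the mean shares were 69.9% in Drd1-type neurons (median UMIs per cell 1224, 2330.0 and 3112), 84.5% in Adora2a-type neurons (1182, 2614 and 2408) and 9.89% in oligodendrocytes (926, 1883 and 3864).

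**Figure D1:**
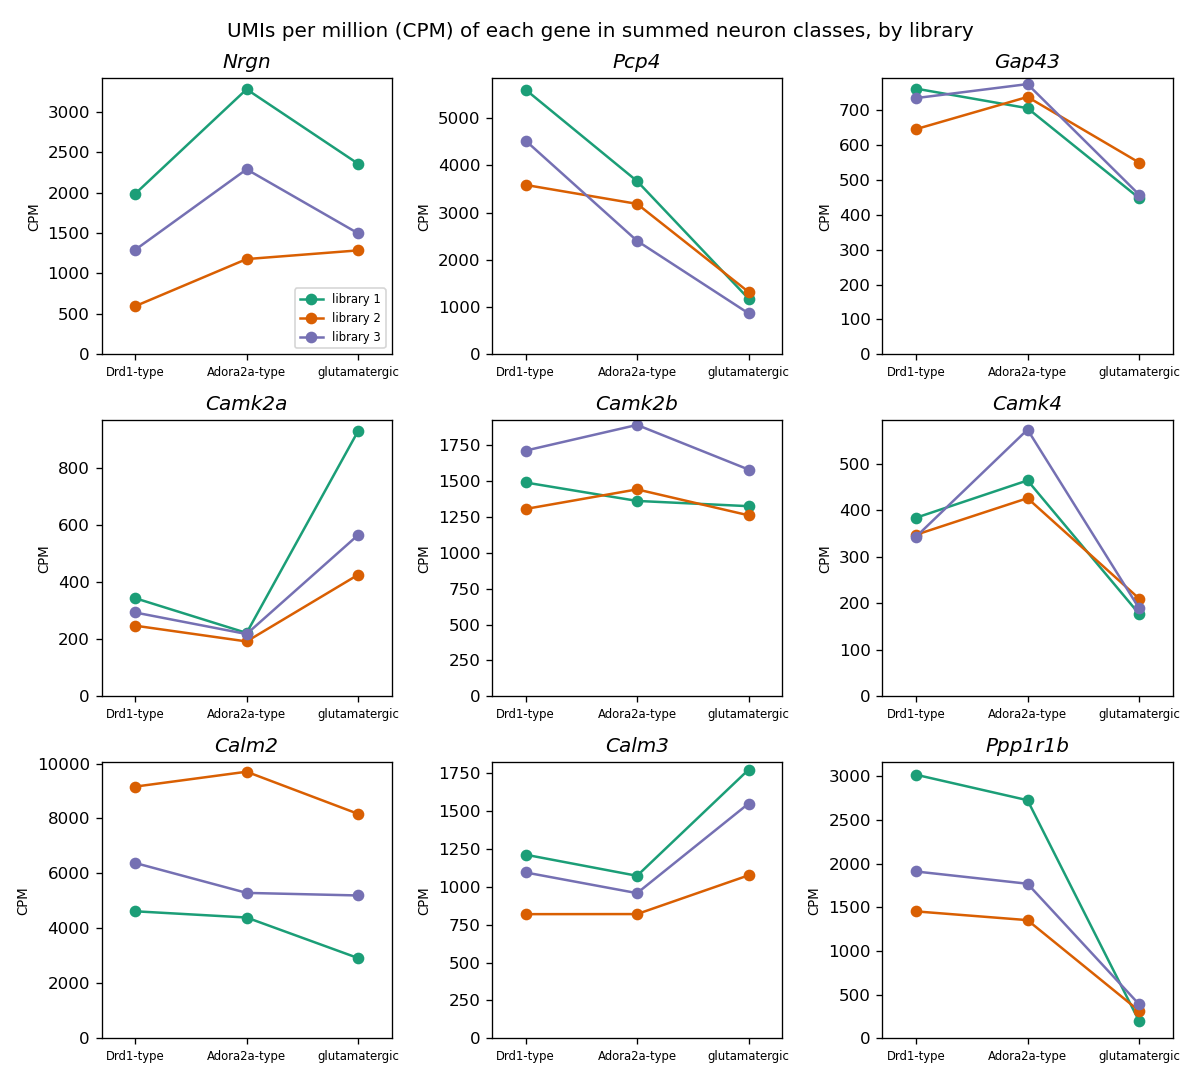
CPM (vertical axis, from 0) of each of the 9 genes in the summed Drd1-type, Adora2a-type and glutamatergic neurons, 1 point per library and 1 line joining the points of a library. Nrgn rises from Drd1-type to Adora2a-type in every library (595 to 1178 in library 2), and Calm2 is highest in library 2 in all 3 classes.

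Pcp4 encodes PEP-19, which speeds the exchange of calcium on calmodulin. It was measured at 5608, 3589 and 4528 CPM in Drd1-type and 3669.7, 3187 and 2404 CPM in Adora2a-type neurons. Drd1-type was the higher class in all 3 libraries, but by a ratio of only 1.13 in library 2, against 1.53 and 1.88 in libraries 1 and 3. The Pcp4 log2 fold change of 0.54 (SE 0.12) did not pass, with an adjusted p of 0.0626 (edgeR). It passed when any 1 library was left out, from 0.35 without library 3 to 0.75 without library 2, and also with cells of at least 1000 UMIs, the default prior, receptor genes alone as gate or the margin gate. In library 2 the non-neuronal cells held 746 CPM of Pcp4, beside 68.7 and 95.8 CPM in libraries 1 and 3. The part of this background in the smaller ratio was not tested. Gap43, a growth-cone and presynaptic protein, had 762, 646 and 735 CPM in Drd1-type and 706, 738 and 775 CPM in Adora2a-type neurons. Its values overlapped and its order changed between libraries, with a log2 fold change of -0.10 (SE 0.085).

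Among the kinases, Camk2a, the alpha subunit of CaMKII, had 343, 247 and 293 CPM in Drd1-type and 222, 192 and 218 CPM in Adora2a-type neurons. No Adora2a-type value reached the lowest Drd1-type value. Camk2a was higher by a ratio of 1.55, 1.29 and 1.35, a log2 fold change of 0.42 (SE 0.119, adjusted p 0.0341, edgeR). Camk2a lost its call without library 1 (adjusted p 0.17), without library 2 (0.321) and without library 3 (0.16). It also lost the call with DESeq2 (0.9996), without a low-count filter (0.195), without the block (0.9998), with stricter gates (0.654), with doublets kept (0.0579) and with receptor genes alone as gate (0.155). Camk2b, the beta subunit, had 1489, 1305 and 1711 CPM against 1361, 1441 and 1889.8 CPM, values that overlapped. Its log2 fold change was -0.09 (SE 0.0735). It did not pass.

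Camk4, a kinase that phosphorylates the transcription factor CREB in the nucleus, ran the other way from Camk2a. Its level was 384, 347 and 343 CPM in Drd1-type and 464, 426 and 573 CPM in Adora2a-type neurons, and the 2 sets did not overlap. The ratio was 0.827, 0.815 and 0.598, and the log2 fold change -0.47 (SE 0.1, adjusted p 0.00092, edgeR). Without library 3, the library with the widest gap, the Camk4 log2 fold change was -0.30 (adjusted p 0.339), and without library 2 it was -0.60 (0.0561). With DESeq2 it was -0.48 (adjusted p 0.51), and Camk4 also lost the call without a low-count filter (0.103), with stricter gates (0.373) and without the block (0.9998).

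**Figure D2:**
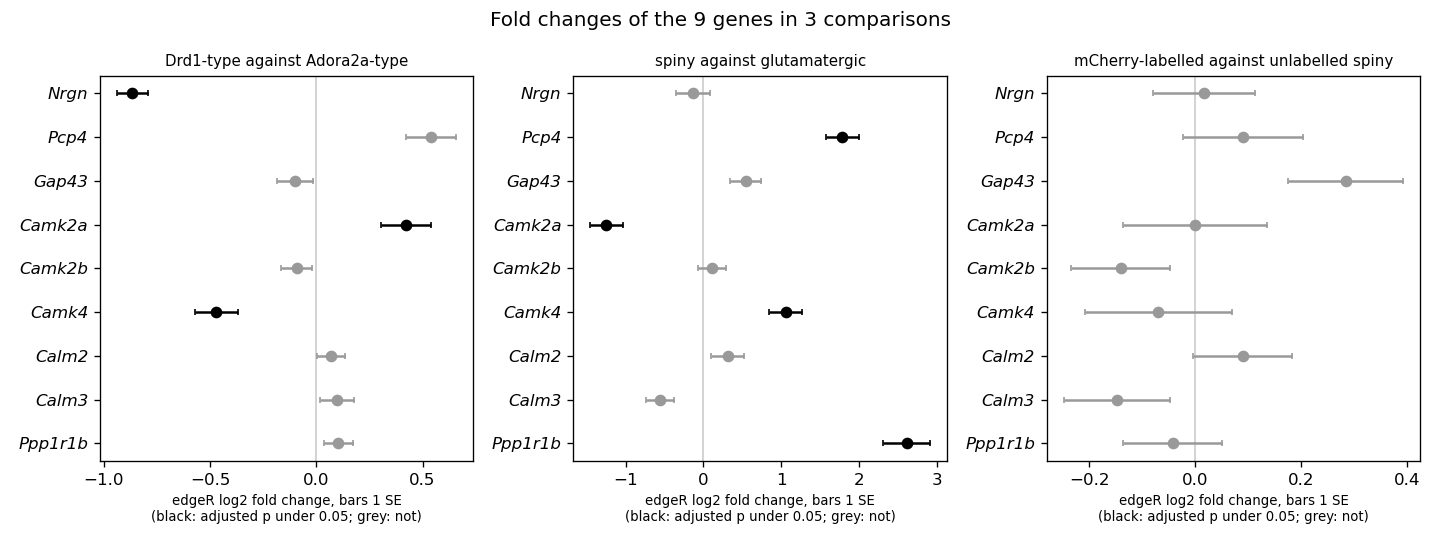
edgeR log2 fold changes (horizontal axes, each panel on its own scale) of the 9 genes in 3 comparisons, with bars of 1 SE, black where the adjusted p was under 0.05 and grey elsewhere. Nrgn at -0.87 and Camk4 at -0.47 lie left of 0 in the first panel, Ppp1r1b at 2.61 is farthest right in the second, and no gene is black in the third.

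The calmodulin genes and the phosphatase inhibitor did not pass between the types. Calm2, which like Calm3 encodes calmodulin, had 4624, 9159 and 6382 CPM in Drd1-type and 4396, 9702 and 5293 CPM in Adora2a-type neurons, a log2 fold change of 0.07 (SE 0.0641). The difference between libraries was larger than that between the types: library 2 was highest in both. Calm3 had 1211, 819 and 1094 CPM against 1072, 819.6 and 958 CPM, with library 2 lowest in both types (log2 fold change 0.10, SE 0.0793). Ppp1r1b, which encodes DARPP-32, had 3018, 1454 and 1910.4 CPM in Drd1-type and 2726, 1353 and 1770.1 CPM in Adora2a-type neurons. Its ratio, 1.11, 1.07 and 1.08, varied least of the 9 genes, and its log2 fold change of 0.10 (SE 0.069, adjusted p 0.724, edgeR) did not pass.

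A list of 39 further genes covered calmodulin signalling and protein phosphatases with their regulators. Of the list, 33 genes were tested between the types and 6 passed, 1 higher and 5 lower in Drd1-type neurons. This stands beside 2.06% of all 7944 genes tested. The higher one was Camk2d, the delta subunit of CaMKII (log2 fold change 1.08, SE 0.256), a gene of low counts. It had 1, 83 and 58 UMIs in Drd1-type and 0, 23 and 17 UMIs in Adora2a-type neurons of libraries 1, 2 and 3. The lower ones included Arpp19, which when phosphorylated inhibits protein phosphatase 2A (-0.66, SE 0.0735), Basp1, a growth-cone protein (-0.58, SE 0.122), and Caln1, a calmodulin-like protein (-0.40, SE 0.0941). The median of the list was -0.04, beside 0.00399 for all genes.

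The next comparison set spiny neurons, both types summed, against glutamatergic neurons, of which the dissection gave 49, 55 and 49 cells. Ppp1r1b, Pcp4 and Camk4 were higher in spiny neurons and Camk2a was lower, so 4 of the 9 genes passed, where 846 of 6149 genes (13.8%) passed in all. The median log2 fold change was 0.31 for the 9 genes and 0.02 for all genes. Ppp1r1b had 2874, 1419 and 1853 CPM in spiny and 198, 315 and 390.0 CPM in glutamatergic neurons, a log2 fold change of 2.61 (SE 0.299, adjusted p 0.000169, edgeR). The lowest spiny library lay far above the highest glutamatergic one.

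Pcp4 had 4649, 3449.8 and 3653 CPM in spiny and 1178, 1320.4 and 867 CPM in glutamatergic neurons, with a log2 fold change of 1.79 (SE 0.216, adjusted p 0.000234, edgeR). Camk4 had 423, 374 and 438 CPM against 177, 210.1 and 189 CPM (1.06, SE 0.212, adjusted p 0.00573). For Camk2a the order was turned, with 283, 228 and 262 CPM in spiny and 928, 425 and 564 CPM in glutamatergic neurons (-1.24, SE 0.208, adjusted p 0.00187). The libraries of the classes did not overlap for Ppp1r1b, Pcp4, Camk4 or Camk2a, nor for Gap43, which did not pass. The share of all genes without overlap was not counted. None of Ppp1r1b, Pcp4, Camk4 and Camk2a passed without library 2 (adjusted p 0.0945, 0.0672, 0.141 and 0.127) or without library 3 (0.0514, 0.0721, 0.194 and 0.127), while the fold changes kept their sign.

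The other 5 genes did not pass between spiny and glutamatergic neurons. Gap43 was higher in spiny neurons of all 3 libraries (734, 678 and 752 against 448, 550.2 and 458 CPM) with a log2 fold change of 0.54 and an adjusted p of 0.0982. Calm3 was lower in all 3 (1142, 819 and 1038 against 1772, 1075 and 1549 CPM), at -0.55 with an adjusted p of 0.0644. Nrgn changed order: library 2 had 796 CPM in spiny and 1285 CPM in glutamatergic neurons, whereas libraries 1 and 3 had 2624 and 1702 against 2356 and 1496 CPM. Camk2b (log2 fold change 0.11, SE 0.178) and Calm2 (0.31, SE 0.208) were also below the threshold. Of the further list, 18 of 34 genes tested passed, 10 higher and 8 lower in spiny neurons, beside 13.8% of all 6149 genes. The higher ones included Pde1c (3.02) and Pde1b (2.19), phosphodiesterases switched on by calmodulin, and Pcp4l1, a relative of Pcp4 (2.13). The lower ones included Camk2n2, an inhibitor of CaMKII (-3.52), Camk1, a further CaM kinase (-2.53), and Basp1 (-2.39). Counts were low for Pde1c in glutamatergic neurons (0, 3 and 3 UMIs) and for Camk2n2 in spiny neurons (0, 21 and 21 UMIs).

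A direct comparison with Sst-Npy interneurons was not possible with 10 cells per library, since the class held 9, 48 and 8 cells. In library 2 it had 3572 CPM of Pcp4, 673 CPM of Nrgn and 1157 CPM of Ppp1r1b. Libraries 1 and 3 had few UMIs of the latter genes: 1 and 3 for Nrgn and 0 and 8 for Ppp1r1b, of 13359 and 31761 UMIs in the class, against 92 and 158 of 136607 in library 2. Pooled over all its cells, most of them from library 2, the class also held markers of spiny neurons (440 CPM of Pde10a and 248 CPM of Drd1), and their part in those values was not tested. With 5 cells per sum none of the 9 genes passed, where 3 of 5234 genes (0.0573%) did. An unadjusted p under 0.05 (edgeR) was found for 3 of the 9, Nrgn, Camk2b and Ppp1r1b, and for 244 of all 5234 genes. The median log2 fold change was 0.95 for the 9 genes and 0.15 for all genes.

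Across the 10 classes with 10 or more cells in every library, the 9 genes were mainly genes of neurons. All 9 were higher in neurons than in the sum of non-neuronal cells in each of the 3 libraries and passed. This stands beside 61.9% of 11797 genes that passed in either direction and 29.2% that passed as higher in neurons. The log2 fold changes ran from 0.89 (SE 0.244) for Calm3 to 4.24 for Nrgn (SE 0.497) and Camk4 (SE 0.521), with a median of 3.89 for the 9 and -0.06 for all genes. Without library 3, Pcp4, Calm2 and Calm3 did not pass (adjusted p 0.0569, 0.0629 and 0.179).

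**Figure D3:**
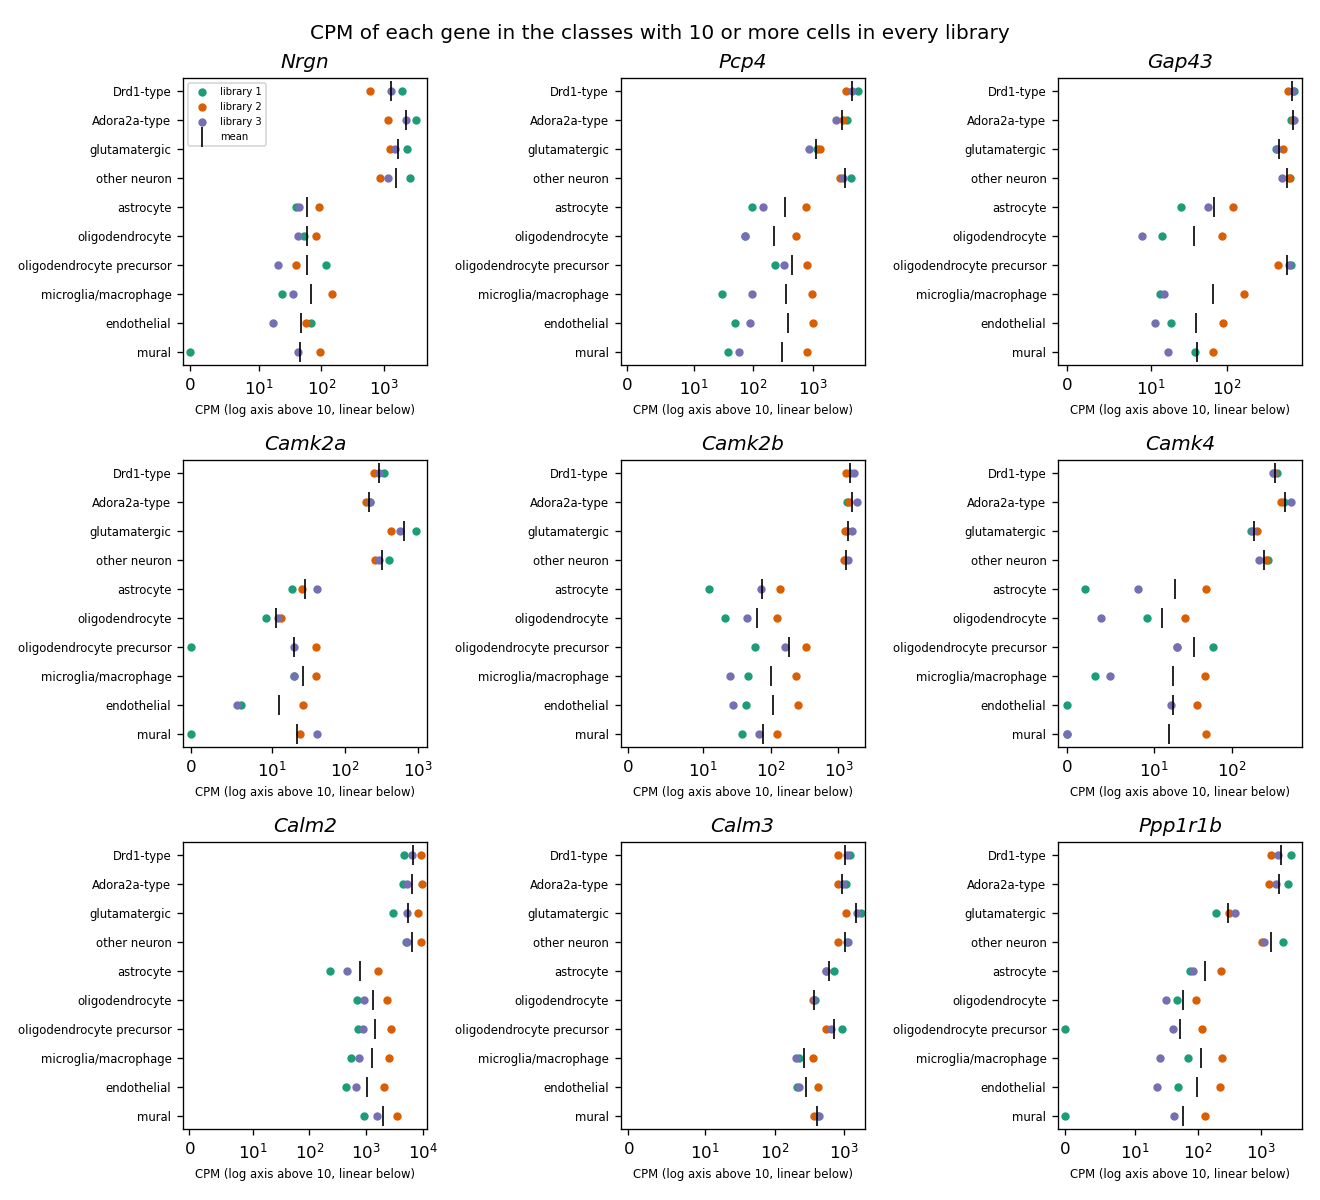
CPM of the 9 genes (horizontal axis, logarithmic above 10 and linear below) in each class with 10 or more cells in every library, 1 point per library and a vertical tick at the mean. Gap43 in oligodendrocyte precursors lies between 474 and 701 CPM, among the neuron classes, and Calm2 of library 2 lies right of the other libraries in every class.

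The distance between neurons and other cells depended on the library. Pcp4 in neurons was 58.0, 4.12 and 32.95 times its non-neuronal level in libraries 1, 2 and 3. Nrgn was 55.8, 8.7 and 38.1 times higher, Camk4 60.8, 8.36 and 55.1 times, Camk2b 49.2, 7.62 and 32.4 times, and Ppp1r1b 37.8, 6.89 and 35.0 times. Library 2 had the smallest ratio for all 9 genes. The neuron markers, too, were highest in its non-neuronal cells, except Tubb3, which was highest in library 3 (82.7% of the neuronal level). Expressed against the neuronal level, the non-neuronal level in library 2 was 24.3% for Pcp4, 18.4% for Gap43, 14.5% for Ppp1r1b, 13.1% for Camk2b, 11.97% for Camk4, 11.5% for Nrgn and 10.1% for Camk2a. The 7 neuron markers spanned 11.6% to 50.7% there, with Tubb3 highest and the other 6 at or below 18.0%. Pcp4 was thus above those 6 markers in library 2, but at 1.72% and 3.04% below the median of all 7 markers in libraries 1 and 3 (2.12% and 3.45%). The part of stray neuronal RNA in these non-neuronal levels was not tested.

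**Figure D4:**
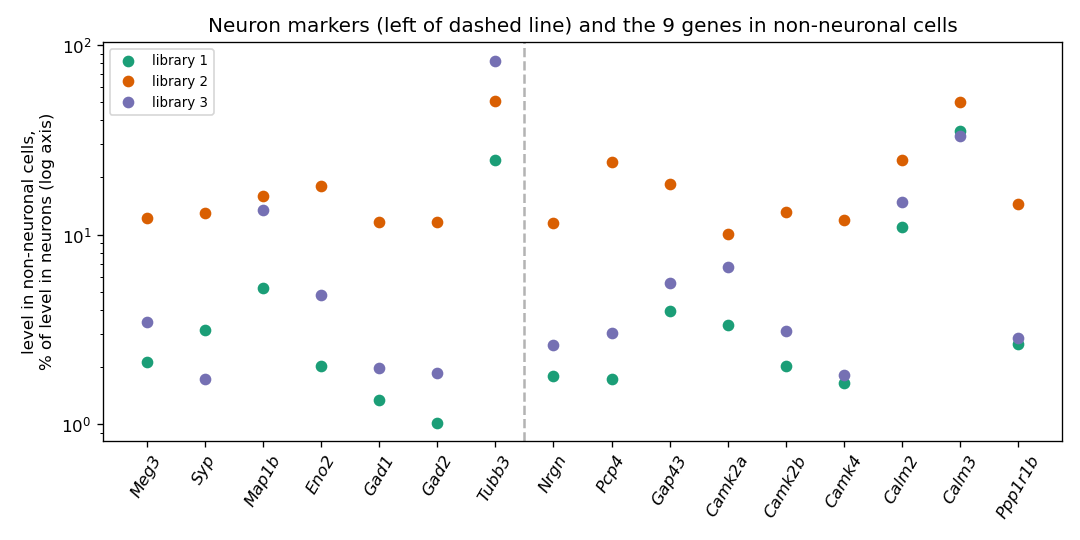
Level in the summed non-neuronal cells as a percentage of the level in neurons (vertical axis, logarithmic), 1 point per library, for 7 neuron markers left of the dashed line and the 9 genes right of it. Library 2 is the highest point of all 9 genes, and Calm3 lies at 33.2% or above in every library.

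Calm2, Calm3 and Gap43 departed from the low level of the others outside neurons. Calm3 kept 35.3%, 49.7% and 33.2% of its neuronal level in non-neuronal cells, with 447, 415 and 381 CPM. Calm2 kept 11.02%, 24.6% and 14.8%, with 473, 2252 and 826 CPM. Both exceeded the marker median of their library in all 3 libraries. Order among neighbours was mostly within the spread between libraries. Of 9 neighbouring pairs of classes, the gap in mean CPM exceeded the larger SD in 4 pairs for Calm3 and Camk4. It did so in 3 for Pcp4, Gap43 and Camk2a, in 2 for Ppp1r1b and in 1 for Nrgn, Camk2b and Calm2. This SD ignores that the classes share their libraries, so a pair within it can still keep its order in every library. Calm2 had 914, 3456 and 1522 CPM in mural cells and 701, 2727 and 886 CPM in oligodendrocyte precursors, a pair within the SD.

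Gap43 was almost as high in oligodendrocyte precursors as in neurons. The precursors, 19, 40 and 18 cells, had 701, 474 and 664 CPM, and all neurons 660.3, 668 and 655 CPM. That is 92.9% of the neuronal level on average (71.0% to 106% over libraries). The 7 neuron markers had a median of 9.002% and a highest value of 19.5% in the same cells. In the other non-neuronal classes present in all libraries Gap43 averaged 5.48% (oligodendrocytes) to 10.2% (astrocytes) of the neuronal level.

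Against oligodendrocytes, a comparison chosen after the levels were seen, Gap43 was higher in precursors by a log2 fold change of 3.76 (SE 0.65, adjusted p 0.00275, edgeR), with 13.8, 86.7 and 8.94 CPM in oligodendrocytes. Camk2b also passed (1.13, SE 0.324, adjusted p 0.0269), so 2 of the 7 genes tested did, where 1044 of 3805 genes (27.4%) passed. Camk2b had only 1, 17 and 8 UMIs in precursors, on average 13.6% of its neuronal level (4.43% to 26.5%). The 7 neuron markers averaged up to 19.5% in the same cells, and the part of stray neuronal RNA was not tested. The median log2 fold change was 0.39 for the 7 genes and -0.22 for all genes. Camk2a and Camk4 were too low to be tested. Gap43 kept a log2 fold change of 2.86 without library 3 and 3.41 without library 1, but its adjusted p was then 0.092 and 0.197, and Camk2b did not pass when any 1 library was left out (adjusted p 0.16, 0.149 and 0.16). Of the further list 2 of 17 genes passed, both higher in precursors: Marcks, a membrane protein released by calmodulin (5.25, SE 0.431), and Basp1 (4.48, SE 0.442).

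Astrocytes and oligodendrocytes, also compared after the levels were seen, differed in opposite directions for the calmodulin genes. Calm2 was lower in astrocytes, with 233, 1611 and 461 CPM against 687, 2341 and 919 CPM (log2 fold change -1.06, SE 0.208, adjusted p 0.000595, edgeR). Calm3 was higher, with 727, 548 and 550.5 CPM against 378, 356 and 364 CPM (0.67, SE 0.191, adjusted p 0.00894). Each direction held in all 3 libraries, and for Calm3 the classes did not overlap. Calm3 lost its call without library 1 (0.46, adjusted p 0.11). In 1 transcript per gene, Calm2 and Calm3 shared no exact stretch longer than 17 bases. Within the last 500 bases, the part read by a 3′ assay, none was longer than 15. Whether reads were assigned to the wrong gene was not tested. Ppp1r1b (1.10), Gap43 (1.06) and Pcp4 (0.60) were higher in astrocytes as well, so that 5 of 7 genes tested passed beside 2970 of 6425 genes (46.2%). Ppp1r1b, Gap43 and Pcp4 averaged only 9.47%, 10.2% and 10.55% of their neuronal level in astrocytes. The 7 neuron markers averaged 3.71% to 15.6% there, and the part of stray neuronal RNA in these differences was not tested. The median log2 fold change was 0.60 for the 7 genes and -0.01 for all genes. Gap43 and Pcp4 did not pass with DESeq2 (adjusted p 0.0907 and 0.14). Gap43 also lost its call without library 1 (adjusted p 0.112) or library 3 (0.349), and Pcp4 when any 1 library was left out (0.0762, 0.0683 and 0.185). None of the 5 passed without the library as block. Of the further list 12 of 26 genes tested passed, 7 higher and 5 lower in astrocytes, led by the CaMKII subunits Camk2g (3.35) and Camk2d (2.17) and, on the lower side, by Marcksl1 (-2.49).

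Library 2 differed from the others in a pattern over genes as well as over classes. In the 4 neuron classes, Nrgn, Camk2a and Calm3 were lowest in library 2 in all 4 and Calm2 was highest in all 4. In the 6 non-neuronal classes Pcp4, Camk2b, Calm2 and Ppp1r1b were highest in library 2 in all 6. Calm2 was therefore the only one of the 9 genes that was highest in library 2 in all 10 classes, at 9150.1 CPM in neurons beside 4291 and 5582 CPM. The share of all genes with such orders was not counted. Library 2 also had the most kept cells and the largest share of cells that passed several gates. Their part in these levels was not tested.

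Spiny neurons with at least 1 mCherry UMI numbered 18 of 309, 185 of 880 and 50 of 364 (5.83%, 21.0% and 13.7%). They were compared with those without, since the reporter marks past calcium together with light. A neuron without a UMI may have held the reporter uncounted or never have held the construct. The comparison is therefore not one of active against inactive neurons. Library 2, with the largest labelled share, also had the highest median of neuron markers in non-neuronal cells. The part of stray mCherry RNA was not tested. None of the 9 genes passed, and 0 of 7164 genes (0%) did with edgeR. DESeq2 also called 0 genes, and 369 genes with edgeR and 22 with DESeq2 had an unadjusted p under 0.05. With edgeR, among the 9 genes only Gap43 was under that level (unadjusted p 0.0244). Gap43 had 719, 751 and 981 CPM in labelled and 735, 654 and 702 CPM in unlabelled spiny neurons, higher in 2 of 3 libraries (log2 fold change 0.28, SE 0.109, adjusted p 0.921). The values overlapped in that the lowest labelled library lay below the highest unlabelled one.

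The log2 fold changes of the other 8 genes between labelled and unlabelled neurons ran from -0.15 (Calm3, SE 0.1) to 0.09 (Calm2, SE 0.094, and Pcp4, SE 0.113). Calm2 was higher in labelled neurons in all 3 libraries by ratios of 1.01, 1.08 and 1.11, and Calm3 lower in all 3 by 0.904, 0.977 and 0.817. Labelled neurons had more UMIs per cell in libraries 2 and 3 (medians 2921 and 3865 against 2282 and 2606) and about as many in library 1 (1214 against 1207). Against unlabelled neurons matched on UMIs 0 of the 9 genes passed, and the log2 fold change of Calm2 was then -0.10. Calm3 had 1039, 805 and 876 CPM in labelled and 801, 770 and 1097 CPM in the matched neurons of libraries 1, 2 and 3. Its order thus changed between libraries. The median log2 fold change was -0.000207 for the 9 genes and -0.00611 for all genes. Of the further list 0 of 33 passed, and 2 had an unadjusted p under 0.05.

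Whether labelling went with a different change in the types was tested by an interaction term, and 0 of 5303 genes (0%) passed, with 208 at an unadjusted p under 0.05 (edgeR). Library 1 gave no labelled Adora2a-type sum, since it had 7 such cells. Pcp4 had the only unadjusted p under 0.05 among the 9 genes, with a log2 difference of -0.58 (SE 0.261, unadjusted p 0.0441). In Adora2a-type neurons labelled and unlabelled cells had 3509 and 3101 CPM of Pcp4 in library 2 and 3959 and 2169 CPM in library 3. The labelled values came from 52 cells in library 2 and only 14 in library 3. In Drd1-type neurons labelled and unlabelled cells had 4184 and 5729, 3696 and 3550, and 4385 and 4566 CPM in libraries 1, 2 and 3, with 11, 133 and 36 labelled cells.

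The genes most like each member over the 10 classes were named by Pearson's r of log2 mean CPM among 7869 genes, as a description. The classes share their libraries, and the split between neurons and other cells runs through every pair. Chrm1, a muscarinic receptor, was closest to Nrgn (r = 0.995, n = 10 classes). Gnal, the striatal G-protein subunit that couples dopamine and adenosine receptors to adenylyl cyclase, was among the 3 closest to Pcp4 (0.988), after Trim46 (0.988). Kcna4, a potassium channel, was closest to Camk4 (0.997), ahead of Hpca, a neuronal calcium sensor (0.995), and Homer1, a postsynaptic scaffold (0.993).

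Cplx2, a presynaptic protein that is rich in glutamatergic neurons, was among the 3 closest to Camk2a (0.99), behind Ldoc1l (0.996) and Napb (0.993). Npas2 was closest to Ppp1r1b (0.994), Zmym3 to Gap43 (0.991), B230334C09Rik to Camk2b (0.995), Syt5, a synaptotagmin, to Calm2 (0.987) and Mapk10, a neuronal stress kinase, to Calm3 (0.986). Among the 9 themselves the highest r was that of Camk2b with Camk4 (0.984), and the lowest that of Calm3 with Ppp1r1b (0.687). Gap43 had an r of 0.739 to 0.892 with the other 8 genes.

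Against non-neuronal cells 37 of the 39 further genes were tested and 30 passed, 27 higher and 3 lower in neurons. Of all 11797 genes tested, 61.9% passed in either direction and 29.2% as higher in neurons. The highest of the list were Camk1g, a CaM kinase (log2 fold change 4.497), Arpp21, a striatum-enriched phosphoprotein that binds calmodulin (4.40), and Caln1 (4.34). Camk1g had only 0, 6 and 1 UMIs in non-neuronal cells of libraries 1, 2 and 3. The lower ones were Mylk, the smooth muscle myosin light chain kinase (-3.07), Marcksl1 (-2.93) and Camk1 (-1.89). The list's median was 2.04, beside -0.06 for all genes.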

How the data were processed

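The submitters used the 10x Genomics v2 kit for 3′ ends, per the labels. The authors deposited raw UMI counts as a single matrix of all cells, written by Cell Ranger 3.0.0 per the file headers. Cell Ranger 3.0 and mm10 are named in the submitters' processing notes, and the annotation release is not given in the sources used here. Cells entered with 300 genes or more and no more than 20% of UMIs from mitochondrial genes. The highest Scrublet scores (scanpy 1.11.5) were removed at 0.8% per 1000 cells (44, 296 and 28 cells), because the automatic threshold marked only 2 cells of library 2. Neurons needed 3 neuron markers with a UMI and other classes 2 of their own.

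Counts were summed per library and class, since cells are not replicates. Sums of at least 10 cells were compared with edgeR 4.0.16 (glmQLFit with robust = TRUE and legacy = FALSE, TMM, filterByExpr, Benjamini-Hochberg over all genes tested), and DESeq2 1.42.0 was an alternative. The code was tested on simulated data. The library entered as a block, since the sums compared share their libraries. Same-library deviations from the class means correlated across genes at 0.464 to 0.726 for the spiny types. They correlated at 0.156 or above for neurons with non-neuronal cells, spiny with glutamatergic neurons, and labelled with unlabelled spiny neurons. The other comparisons were not checked in this way. Kept cells held 2788685, 14563414 and 6267259 UMIs in libraries 1 to 3.

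The 9 genes and all lists were chosen with earlier results of these data known. Named were the 9 genes, per comparison up to 3 higher and 3 lower genes of the further list that passed and moved the same way in every library, and the genes most similar in pattern. Alternatives changed the filter, scaling, tool, prior, block, libraries, gates (1 marker more), depth (1000 UMIs) and doublet removal. The margin gate (a cell takes the class leading by 2 markers), sums of 5 cells and both glial comparisons were added after the data were seen. The Sst-Npy comparison could not be fitted as designed. Construct features were left out of the labelled comparison. Some items withheld for evaluation are not reported here.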

Additional observations from a re-analysis of the deposited data

How the results depend on the processing

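Between Drd1-type and Adora2a-type neurons 164 genes passed, against 73 without a low-count filter, 47 with DESeq2, 25 with no replicate block and 51 with stricter gates, and from 53 (without library 2) to 190.0 (without library 1) with 1 library left out. Of the 9 genes 3 passed, against 1 without a filter, 1 with DESeq2, 1 with stricter gates and 0 with no replicate block, and 2 to 3 with 1 library left out. The latter were not the same genes. With any 1 library left out Nrgn and Pcp4 passed and Camk2a did not, and Camk4 did not pass without library 2 or library 3. Between spiny and glutamatergic neurons 846 genes passed, against 526 with DESeq2, 1306 with stricter gates and 1562 with the margin gate. With 1 library left out this count ran from 14 (without library 2) through 95 (without library 3) to 1507 (without library 1), and that of the 9 genes from 0 to 6. Against Sst-Npy interneurons 3 genes passed with 5 cells per sum, 38 with the margin gate and 0 with any 1 library left out. The other Sst-Npy alternatives were not run. Labelled and unlabelled neurons differed in 2 genes without a filter, in 2 with the default prior, and in 0 to 6 with 1 library left out (6 without library 1).

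Between oligodendrocyte precursors and oligodendrocytes 1044 genes passed, against 104 in cells of at least 1000 UMIs and 0 with stricter gates, both fitted on 2 libraries, and 0 (without library 3) to 177 (without library 2) with 1 left out. Of the 9 genes, 2 passed, against 1 with DESeq2, with no replicate block, with doublets kept or with the margin gate, 0 with stricter gates or 1000 UMIs, and 0 to 1 with 1 library left out. Between astrocytes and oligodendrocytes 5 of the 9 passed, against 3 with DESeq2, 0 with no replicate block and 2 to 4 with 1 library left out.

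Log2 fold changes that turned were all below the threshold. Between the spiny types Calm2 was at -0.084 with stricter gates and from -0.033 to 0.16 with 1 library left out. Against glutamatergic neurons Nrgn was at 0.036 with stricter gates and from -0.27 to 0.17. Against Sst-Npy interneurons Pcp4 was at 0.14 with the margin gate and from -0.12 to 0.020, and Gap43 ran from -0.13 to 0.10. In labelled neurons Nrgn was at -0.030 without a filter, -0.0061 with DESeq2, -0.15 with no replicate block and -0.047 after matching on UMIs, and from -0.086 to 0.058 with 1 library left out. Pcp4 was at -0.018 with DESeq2, -0.059 with no replicate block and -0.18 after matching, and from -0.091 to 0.19. Camk2a was at 0.00385 with DESeq2 size factors, 0.010 with 1000 UMIs and 0.22 after matching, and from -0.23 to 0.12. Matching also gave Camk2b 0.15, Camk4 0.062 and Calm2 -0.10, and with 1 library left out Camk4 ran from -0.30 to 0.25. Ppp1r1b was at 0.028 with stricter gates and from -0.11 to 0.014. In precursors Calm3 was at -0.12 without a filter. In astrocytes Nrgn was at 0.17, 0.24 and 0.25 with stricter gates, 1000 UMIs and the margin gate, and Camk2b ran from -0.16 to 0.20. For these shifts the cause was not tested. Over all comparisons and alternatives, the log2 fold changes of the 9 genes kept direction and side of the threshold in 548 cases, lost the call in 58, gained it in 13 and turned in 33. Small sums limit depth, as in the precursors with 18 to 40 cells and the Sst-Npy class with 8 to 48.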
